A study of Rattus norvegicus with 24 samples.

Results

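Titin is encoded by the gene with the longest exonic sequence in the rat annotation used for these libraries. The gene was taken as the row of chromosome 3 with the greatest exonic length in the deposited count table, which made it 1 of 30562 annotated genes, and no measured level entered the choice. The table gives Ensembl IDs without names. The row is ENSRNOG00000069271, and RefSeq places the rat titin gene, Ttn, on chromosome 3 as well.

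The libraries came from the heart septum, the wall between the ventricles, of 24 Sprague-Dawley rats, taken on day 28 after cardiac ischemia-reperfusion injury, a temporary stop of coronary flow followed by its return. In the BATx group the brown adipose tissue (BAT), a fat that burns fuel for heat, had been ablated, and leptin, the hormone of fat cells, was infused into a cerebral ventricle throughout. In the BATsx group BAT had been deprived of its sympathetic nerves and leptin was infused in the same way. The other 2 groups kept intact BAT and received leptin or vehicle. Each group had 6 separately numbered rats. All 24 rats had the cardiac injury and the ventricular infusion, and no rat with ablated or denervated BAT received vehicle among the samples analysed here, so an effect of either operation without leptin cannot be read from them.

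Titin is a spring-like filament protein of striated muscle. A single molecule reaches from the Z-disc, where thin filaments are anchored, to the M-band in the middle of the sarcomere, and the elastic part in between sets much of the passive stiffness of the heart muscle cell. Its long isoforms are more compliant than its short ones, the choice between them being made by splicing of the exons for the elastic region, and truncating variants of the gene are known as a cause of dilated cardiomyopathy. Counts summed over a gene give the total of all isoforms and do not tell them apart.

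The gene lies on the minus strand of chromosome 3 at 61652439 to 61924741 in mRatBN7.2, a span of 272303 bases. Its 614 annotated exon records merge into 353 exons of 113560 bases in total, which fill 41.7% of the span. Both the exonic length and the number of exons were the highest of the 30562 genes. The next longest gene had 41093 bases, 2.76 times fewer, and the median gene had 1853. The longest titin exon has 17106 bases, 15.1% of the exonic length, and is the 316th exon from the 5′ end, whereas the median titin exon has 264. No annotated gene overlapped the titin gene on either strand, so that counting without regard to strand mixed its reads with those of no annotated antisense gene.

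The sequence just before the annotated transcription start is shown because it is the stretch from which transcription of this gene begins. RefSeq gives the 250 bases upstream of the Ttn start at chr3:82332111-82332360 in GRCr8, minus strand, printed 5′ to 3′ with matches to the motifs searched in capitals.

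Ttn upstream 250 bases: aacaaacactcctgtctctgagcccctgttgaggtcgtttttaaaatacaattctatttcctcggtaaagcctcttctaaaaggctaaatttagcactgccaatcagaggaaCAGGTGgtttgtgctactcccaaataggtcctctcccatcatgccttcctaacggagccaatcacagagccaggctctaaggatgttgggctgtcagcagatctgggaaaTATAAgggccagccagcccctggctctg

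Its GC content is 48.4%. The first capitals are an E-box (CANNTG), the motif bound by basic helix-loop-helix factors, beginning 138 bases before the start, and 65.5% of 33469 rat promoters of this length hold one. The second capitals are a TATA-like TATAA, beginning 28 bases before the start and found in 24.0% of promoters. The 2 matches do not overlap. On neither strand did this window hold the letters of MCAT (CATTCC, in 12.1% of promoters), of the CArG box of serum response factor (1.50%) or of GATAA (23.5%), and nothing about those factors follows from this.

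Each library held 71587993 to 122910706 assigned reads, of which 23.1% to 45.9% lay on mitochondrial genes. Between 133092 and 431151 reads of a library fell on titin, from 0.135% to 0.393% of the total, so that counting error is small beside the differences between rats. Levels are given in CPM, reads of a gene relative to the size of its library, after TMM scaling, which sets libraries to a common scale through the bulk of the genes. At a mean of 2764 CPM over the 24 libraries, titin ranked 15th of 17325 nuclear genes that passed the filter on low counts. The first by the mean was a gene of 6042 bases on chromosome 15 at 10324 CPM. In single libraries, among all nuclear genes without the filter, titin ranked between 7th and 37th by reads. Much of its rank goes with length. Per kilobase of exon, titin averaged 24.3 CPM and ranked 1860th of the filtered genes, with 3.36 CPM per kilobase for the median gene. Without the filter it ranked between 1057th and 3872nd per kilobase in single libraries. The mean levels of the 20 next longest tested genes summed to 2561 CPM, close to that of titin.

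Among the 4 groups, the mean titin level was lowest in BATx rats. The 6 BATx libraries had 1288, 1714, 1283, 1383, 2458 and 3099 CPM. The 6 BATsx libraries had 1883, 2332, 2369, 2347, 4010 and 3733 CPM. The 6 intact leptin libraries had 2550, 3454, 3277, 3260, 3003 and 4703 CPM. The 6 intact vehicle libraries had 1772, 1962, 2123, 3406, 3946 and 4978 CPM. Of the BATx libraries, 4 were below all 18 libraries of the other groups, and the vehicle libraries fell apart into 3 of at most 2123 and 3 of at least 3406 CPM. No group was wholly separated from another.

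**Figure D1:**
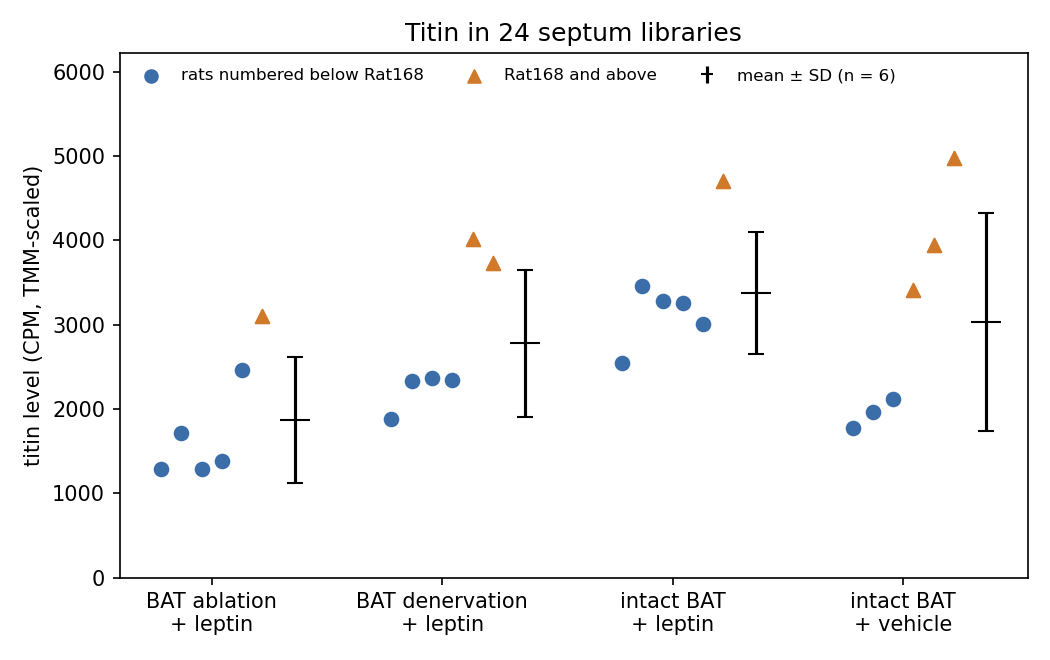
Titin level in each of the 24 septum libraries, in CPM on TMM-scaled library sizes, with the mean and SD of each group of 6 drawn beside its points. In every group the libraries of rats numbered from Rat168 upward (triangles) lie above those of lower-numbered rats (circles), and 4 of the 5 BATx circles are the lowest points of the plot, from 1283 to 1714 CPM.

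The mean was 1871 ± 749 CPM in BATx rats, 2779 ± 870 in BATsx rats, 3374 ± 723 in intact leptin rats and 3031 ± 1290 in intact vehicle rats (SD, n = 6 each). From the top the order was intact leptin, intact vehicle, BATsx and BATx. Neighbours in this order differed by 343 CPM, 252 CPM and 908 CPM. The first 2 steps were under the SD of either group, and the step between BATsx and BATx, just above both SDs, did not pass the test below.

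Whether the loss of BAT changes the leptin-treated heart is addressed by BATx against intact leptin rats, and titin was lower in nearly all pairs of these rats. All 6 BATx libraries were below the median of the intact leptin libraries, 5 of 6 were below all of them, and in 34 of the 36 pairs of a BATx and an intact leptin rat the BATx rat had less titin. The ratio of the means was 0.554. With edgeR's quasi-likelihood test on all 24 libraries the log2 difference was -0.85 ± 0.29 (SE), which did not pass after adjustment over all genes (adjusted p = 0.106, unadjusted p = 0.00759). In this comparison 3.03% of the 17347 tested genes passed, 202 of them lower in BATx rats, and 7.14% of genes had a smaller p than titin. An exact two-sided permutation test of titin's log2 CPM alone, chosen after the data were seen, gave -0.91 with p = 0.00649 (p = 0.0390 adjusted over the 6 comparisons), the smallest p this design allows being 0.00216. When each of the 12 libraries was left out in turn, that adjusted p lay between 0.0260 and 0.0779 and was under 0.05 for 1 of the 12, the fit without BATx replicate 6.

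In that edgeR model the other comparisons of titin did not pass either. Denervated against intact BAT under leptin gave -0.28 ± 0.29 (adjusted p = 0.638), where edgeR called 0 genes (0%), 2836 having an unadjusted p under 0.05, and DESeq2 called 493. BATx against BATsx rats gave -0.57 ± 0.29 (adjusted p = 0.890), and BATx rats against intact vehicle rats gave -0.70 ± 0.29 (adjusted p = 0.457). edgeR called 0 genes (0%) in both, with 778 and 1892 at an unadjusted p under 0.05, and DESeq2 called 0 and 21. The unadjusted p of titin in these 3 comparisons was 0.343, 0.0610 and 0.0249. BATsx rats against intact vehicle rats gave -0.13 ± 0.29 (adjusted p = 1.00), with 0 genes called by edgeR (0%) or DESeq2 and 348 at an unadjusted p under 0.05. This sign turned with the set term described below. Leptin against vehicle with BAT intact gave 0.15 ± 0.29 (adjusted p = 0.753), in a comparison in which 0.674% of genes passed. The comparisons share groups, and those with the intact leptin rats share those 6 libraries.

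The labels number the rats, and titin followed the numbers. The 7 rats from Rat168 upward, called high-numbered here, had 3982 ± 669 CPM (SD, n = 7), and the 17 rats up to Rat164 had 2262 ± 690 CPM (SD, n = 17). The difference was 0.86 on the log2 scale and was above that of 79.8% of all tested genes. It was 0.84 with DESeq2's size factors or with TMM on nuclear genes, and 0.44 with plain library totals. Because the boundary was read from the libraries themselves, this difference is a description without a test. In CPM on TMM-scaled library sizes, every high-numbered rat had more titin than every low-numbered rat of its group. As a share of all reads this did not hold among the intact leptin rats, where the high-numbered rat had 0.329% and the low-numbered rats up to 0.370%. The labels do not say what the numbers stand for.

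The high-numbered rats are unevenly spread, with 1 in the BATx group, 2 in the BATsx group, 1 in the intact leptin group and 3 in the intact vehicle group. Among the low-numbered rats, titin averaged 1625 ± 498 CPM in BATx (n = 5), 2233 ± 234 in BATsx (n = 4), 3109 ± 351 in intact leptin (n = 5) and 1952 ± 175.9 in intact vehicle rats (n = 3). Here the 5 intact leptin rats, from 2550 to 3454 CPM, stood above every rat of the other groups. How many other genes separate these 5 rats in this way was not counted. Among the high-numbered rats the level was 3099 CPM in the BATx rat, 3872 ± 195.9 in the 2 BATsx rats, 4703 in the intact leptin rat and 4110 ± 799 in the 3 intact vehicle rats, where the highest vehicle rat, at 4978 CPM, was above the leptin rat.

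With a term for the rat-number set in the edgeR model, titin fell in BATx rats against intact leptin rats by 0.88 ± 0.16 (SE) on the log2 scale (adjusted p = 0.00183), a fold of 0.542. That model called 18.6% of all genes in this comparison, 1546 lower and 1673 higher, and 0.692% of genes had a smaller p than titin. The call held with each of the 12 libraries left out, the log2 difference then being between -1.04 and -0.82. The set boundary, read from these same libraries, was kept in each of those fits. Without the set term 0 of the 12 such edgeR fits passed (adjusted p from 0.0558 to 0.267). Within the low-numbered rats alone edgeR gave -0.93 (adjusted p = 0.0164), with 11.4% of genes called, and the exact two-sided permutation test of titin gave -0.97 with p = 0.00794 (0.0476 adjusted over 6). The one pair of high-numbered rats differed by -0.60 on the log2 scale, without replicates.

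Rat numbers also differ between the groups below that boundary. The low-numbered BATx rats run from Rat95 to Rat164, whereas those of the intact leptin group are Rat56, Rat60, Rat61, Rat62 and Rat120. With the 4 lowest-numbered intact leptin rats left out and the set term kept, the difference was -0.76 and did not pass (adjusted p = 0.186), with 2 leptin rats remaining and 0.027% of genes called. With the rat number as a linear covariate it was -1.31 (adjusted p = 0.00152). Group and rat number can therefore be told apart only in part.

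With the set term, denervated against intact BAT under leptin gave -0.46 ± 0.16, which did not pass (adjusted p = 0.0779, with 6.65% of genes called). Leptin against vehicle gave 0.53 ± 0.17 (adjusted p = 0.0592, with 6.13% of genes called), and passed with 1 of 12 libraries left out, intact leptin replicate 6 (0.60, adjusted p = 0.0455). BATx rats against intact vehicle rats gave -0.36 ± 0.17 (adjusted p = 0.577), BATsx rats against intact vehicle rats 0.065 ± 0.16 (adjusted p = 0.999) and BATx against BATsx rats -0.42 ± 0.16 (adjusted p = 0.533), with 0% of genes called by edgeR in each, 1487, 659 and 1482 of them having an unadjusted p under 0.05. Within the low-numbered rats the 4 BATsx rats lay below all 5 intact leptin rats, and the exact two-sided permutation test gave -0.48 with p = 0.0159 (0.0476 adjusted over 6), whereas edgeR on the same rats called 0.00559% of genes and not titin. The 5 intact leptin rats lay above all 3 low-numbered vehicle rats by 0.67 (exact two-sided p = 0.0357, 0.0714 adjusted over 6), and edgeR called 0% of genes there, 3431 having an unadjusted p under 0.05. In these comparisons of low-numbered rats whose groups do not overlap, the exact p is the smallest that their numbers allow. How many other genes separate these groups was not counted.

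**Figure D2:**
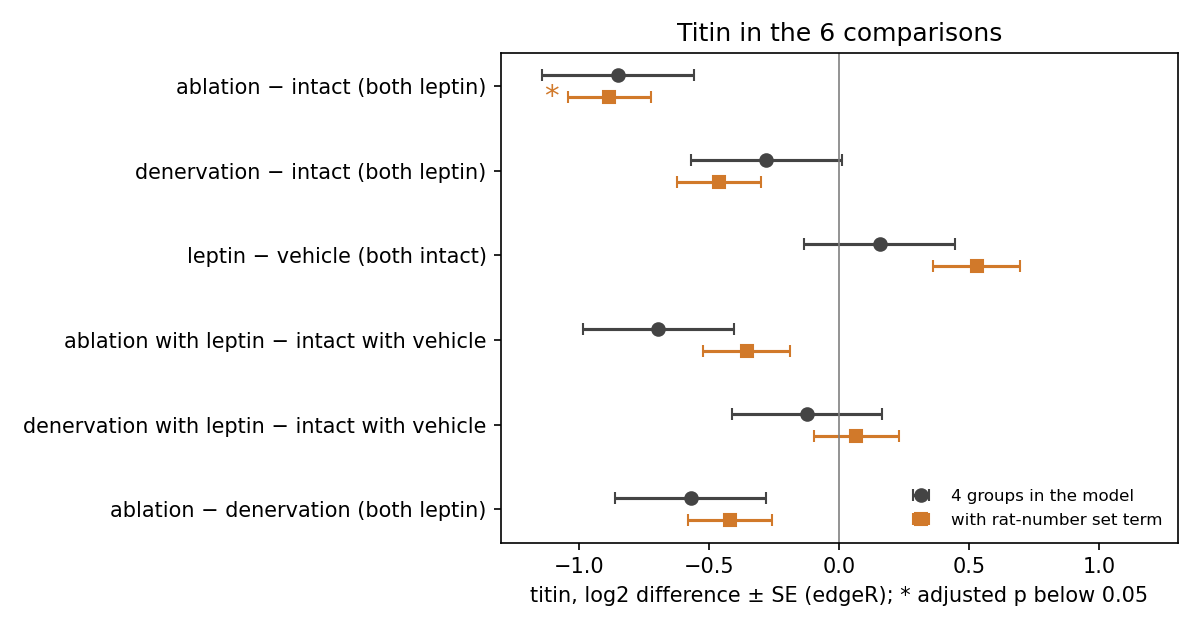
Log2 difference of titin in the 6 comparisons with its standard error, from edgeR models of the 24 libraries with the 4 groups alone (circles) and with the rat-number set added (squares), zero meaning no difference. The asterisk marks the value with an adjusted p under 0.05, BATx against intact BAT under leptin with the set term (-0.88), and the set term shortens every error bar, from 0.29 to 0.16 or 0.17.

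Reads from long transcripts are lost more readily than those from short ones when RNA is broken or captured by its 3′ end, and so titin was set beside other very long genes. The 20 longest tested genes besides titin had 20743 to 41093 exonic bases. Only 12 of them reached a mean of 10 CPM, the highest at 940 CPM, so that each carries far fewer reads than titin. In BATx against intact leptin rats their median log2 difference was -0.28, with 13 of 20 below zero, against -0.022 over all tested genes. Of the 20, 1 was called lower and 1 higher without the set term, where 1.16% of all genes were called lower and 1.86% higher. With the set term the median was -0.21, with 6 called lower and 3 higher, where 8.91% of all genes were called lower and 9.64% higher. Titin's difference was below that of 19 of the 20 in both models. In BATsx against intact leptin rats, which share the leptin libraries, the median of the 20 was -0.34, with 15 below zero and 0 called where edgeR called 0% of genes, and titin, at -0.28, had 10 of them below it and 10 above.

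The 20 genes split by their number of exons. In the first kind, 10 genes have 65 or more exons, and 9 of these 10 lay below zero in BATx against intact leptin rats, with a median of -0.53 and, with the set term, 5 called lower and 0 higher. The second kind, the other 10, have 2 to 14 exons, and 4 of these lay below zero, with a median of 0.15 and, with the set term, 3 called higher and 1 lower. Of the second kind 5 were under 10 CPM, and of the first kind 3. The split was made after the values were seen and is a description. In BATx against intact leptin rats titin, with 353 exons, lay with the first kind. In BATsx against intact leptin rats all 10 genes of the first kind lay below zero, with a median of -0.58, and 5 of the second kind did, with a median of 0.090. In leptin against vehicle 2 of the first kind and 8 of the second lay below zero, with medians of 0.43 and -0.28. Of all 17347 tested genes, 9046, 8449 and 8996 lay below zero in these 3 comparisons in turn. With the set term 8.91% of all genes were called lower and 9.64% higher in BATx against intact leptin rats. Elsewhere titin lay further down than the first kind. In BATx against intact vehicle and against BATsx rats it was at -0.70 and -0.57, and the lowest of the first kind at -0.47 and -0.50. Of all tested genes, 1963 and 1621 lay below titin there. With the set term titin, at -0.356 and -0.421, lay just above their lowest, at -0.364 and -0.430. Over the 24 libraries the first kind had a median r of 0.23 with titin.

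The one long gene that lay further down than titin was ENSRNOG00000058068 on chromosome 10, named here for that reason after its values were seen. It has 22708 exonic bases in 92 exons and averaged 940 CPM, which is 41.4 CPM per kilobase, a level per length above that of titin. It fell in BATx against intact leptin rats by 0.97 on the log2 scale (edgeR adjusted p = 0.0254) and by 0.996 with the set term (adjusted p = 0.00121). Its log2 CPM followed that of titin over the 24 libraries with r = 0.82. At the other end, the longest gene after titin, on chromosome 18 with 41093 bases in 14 exons and 73.1 CPM, had a log2 difference of 0.67 in the same comparison.

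**Figure D3:**
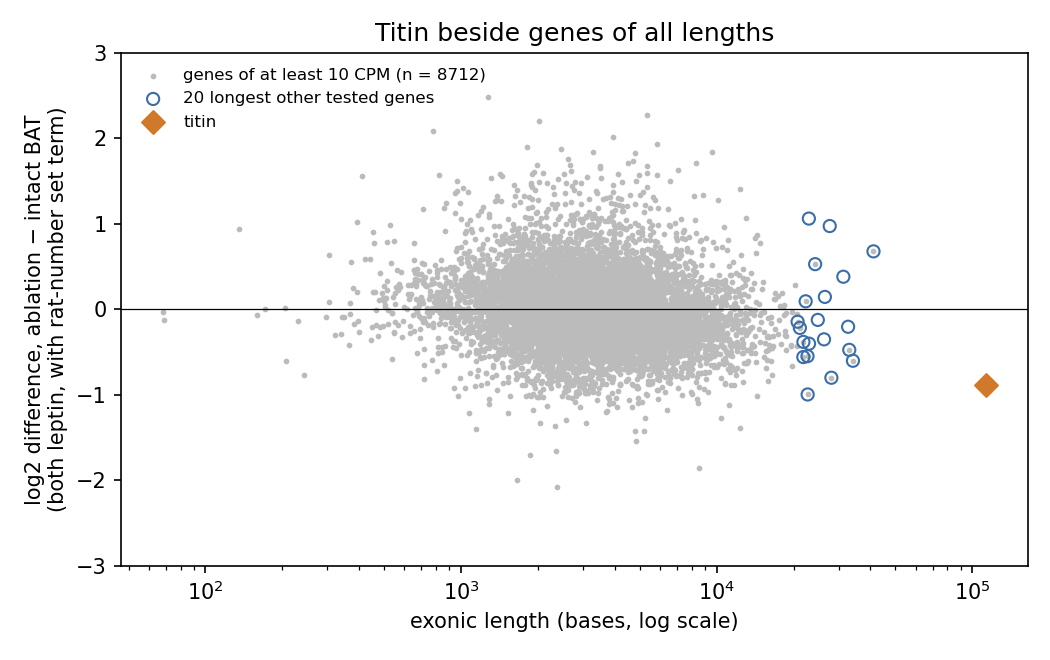
Log2 difference between BATx and intact leptin rats with the set term in the model, against exonic length on a log scale, for 8712 genes of at least 10 CPM (grey), the 20 longest other tested genes whatever their level (open circles) and titin (diamond), with 2 genes beyond the axis limits. The open circles spread from -0.996 to 1.06 on both sides of zero, and titin lies at -0.88, near their lower edge and far to their right.

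Titin was then set against the middle of the 20 long genes, library by library. For each library the median centred log2 CPM of the 20 long genes was subtracted from that of titin. This relative level was -0.45 ± 0.52 in BATx rats, 0.13 ± 0.42 in BATsx rats, 0.18 ± 0.45 in intact leptin rats and 0.063 ± 0.67 in intact vehicle rats (SD, n = 6 each, log2). BATx against intact leptin rats differed by -0.62, which did not pass the exact two-sided permutation test (p = 0.0606, 0.201 adjusted over 6). BATx against BATsx rats differed by -0.58 (exact p = 0.0671, adjusted 0.201) and BATx against intact vehicle rats by -0.51 (exact p = 0.173, adjusted 0.346). The other 3 comparisons differed by 0.11 for leptin against vehicle, -0.046 for BATsx against intact leptin and 0.068 for BATsx against intact vehicle rats, each with an exact adjusted p = 0.848. Thus the difference between BATx and intact leptin rats, -0.91 in titin's own log2 CPM, was -0.62 relative to the long genes and did not pass the test. Because the 20 genes split in sign by their number of exons, their median is no measure of length alone.

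Within the low-numbered rats alone the relative level differed by 0.55 for leptin against vehicle (exact two-sided p = 0.0357), by -0.62 for BATx against intact leptin rats (exact p = 0.0317), by -0.49 for BATx against BATsx rats (exact p = 0.0635) and by 0.42 for BATsx against intact vehicle rats (exact p = 0.0571), each with an adjusted p of 0.0952 over the 6 comparisons. BATsx against intact leptin rats differed by -0.14 (exact p = 0.381, adjusted 0.457) and BATx against intact vehicle rats by -0.070 (exact p = 0.750, adjusted alike). None passed after adjustment. The differences of both leptin and BATsx rats from vehicle rats were larger here than over all rats, and that of BATx rats from vehicle rats was smaller.

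**Figure D4:**
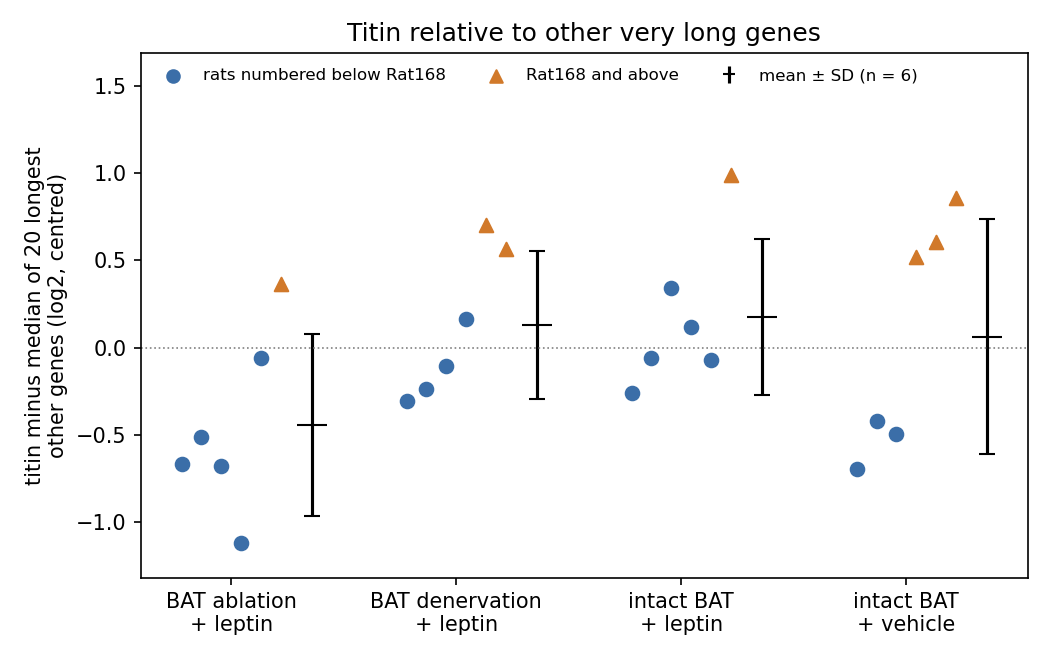
Titin relative to the median of the 20 longest other tested genes in each library (log2, each gene centred on its mean over the 24 libraries), with mean and SD per group of 6, circles for rats numbered below Rat168 and triangles for those from Rat168 upward. All 7 triangles lie above zero, from 0.36 to 0.99, and the BATx circles reach from -1.12 to -0.059.

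The difference between the sets of rats was not shared with the very long genes. The relative level was 0.66 ± 0.21 in the 7 high-numbered rats and -0.30 ± 0.37 in the 17 low-numbered rats (SD), while the median set difference of the 20 long genes was -0.18, with 12 of 20 below zero. Over all tested genes the set difference did climb with length, from a median of -0.36 in the shortest of 5 equal classes of genes through -0.17, -0.026 and 0.070 to 0.16 in the longest class. Titin, at 0.86, was above 75.6% of the genes of the longest class. A length gradient was computed for each library by subtracting the median centred log2 CPM of the shortest class from that of the longest. It was 0.34 ± 0.10 in the high-numbered rats and -0.17 ± 0.16 in the low-numbered rats (SD). The median of the 20 long genes was -0.046 ± 0.077 and 0.045 ± 0.23 in these sets (SD), so that subtracting it does not remove this gradient. By group the length gradient was -0.14 ± 0.29 in BATx, -0.033 ± 0.31 in BATsx, 0.0070 ± 0.20 in intact leptin and 0.082 ± 0.31 in intact vehicle rats (SD, n = 6 each). Its relation to titin's level was tested by the correlations within each set given below. In the model the gradient served as a covariate, and its own term was not tested. With the set term and this gradient together, BATx against intact leptin rats gave -0.83 for titin (edgeR adjusted p = 0.00825, with 7.47% of genes called).

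Because titin's level and the length gradient differed between the sets, though with overlap, relations across libraries were taken within each set, 6 in all. In the 17 low-numbered rats titin's log2 CPM had r = 0.41 with the length gradient (permutation p = 0.101, adjusted 0.303) and rho = 0.49 (p = 0.0491, adjusted 0.147), and r was 0.73 without the 2 rats farthest from the median gradient. In the 7 high-numbered rats r was 0.56 and rho 0.50 (exact p = 0.171 and 0.267, adjusted 0.342 and 0.533), and r was -0.36 without 2. With the median of the 20 long genes r was 0.58 and rho 0.56 in the low-numbered rats (permutation p = 0.0140 and 0.0219, adjusted 0.0838 and 0.131, r = 0.37 without 2). In the high-numbered rats r was 0.52 and rho 0.32 (exact p = 0.233 and 0.498, adjusted 0.350 and 0.746, r = -0.086 without 2). With the mitochondrial share of reads r was -0.094 and rho -0.017 in the low-numbered rats (permutation p = 0.718 and 0.951, adjusted alike, r = -0.10 without 2). In the high-numbered rats they were 0.45 and 0.21 (exact p = 0.294 and 0.662, adjusted 0.353 and 0.794, r = 0.69 without 2). No relation passed after adjustment.

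**Figure D5:**
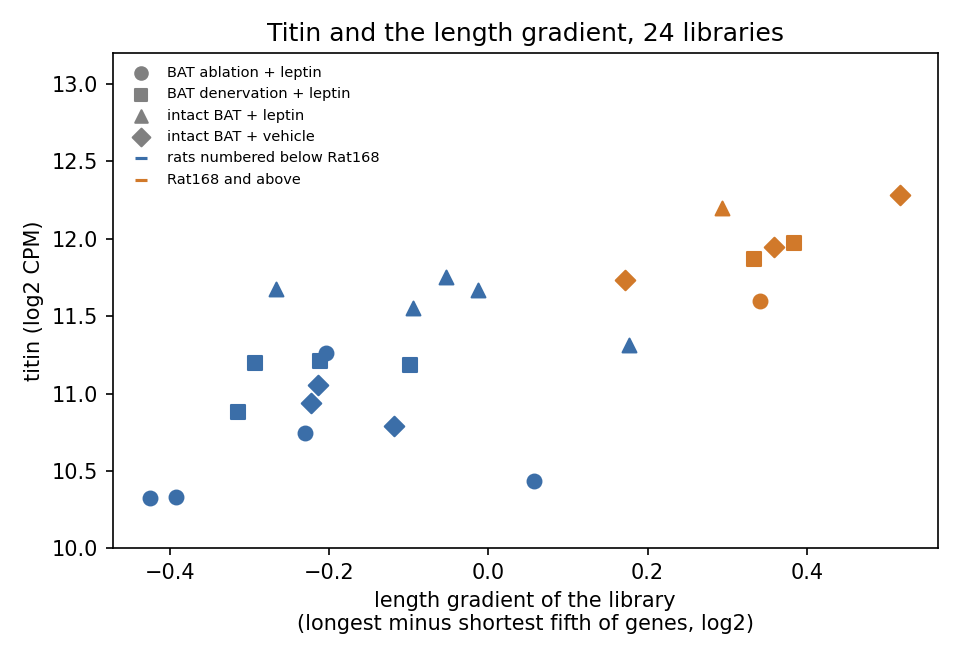
Titin's log2 CPM against the length gradient of the library, the median of the longest of 5 length classes minus that of the shortest (log2), 1 point per library, with shapes for the 4 groups and colours for the 2 sets of rat numbers. The high-numbered rats lie at gradients from 0.17 to 0.52, and a low-numbered intact leptin rat reaches 0.18. A BATx rat with a gradient of 0.057 has a titin level of 10.43, near the lowest of the plot.

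Mitochondrial reads took 34.7 ± 8.24% of the libraries of BATx rats, 26.7 ± 1.97% of BATsx, 33.5 ± 5.35% of intact leptin and 35.2 ± 1.17% of intact vehicle rats (SD, n = 6 each). As a share of nuclear reads alone, titin took 0.289 ± 0.0840% in BATx, 0.390 ± 0.0623% in BATsx, 0.501 ± 0.0450% in intact leptin and 0.412 ± 0.113% in intact vehicle rats (SD). On this scale the highest BATx library, at 0.394%, was below the lowest intact leptin library, at 0.430%. The 2 groups do not overlap on it, unlike in CPM. How many other genes separate them on this scale was not counted. The 3.03% of genes that edgeR called in this comparison is another measure, on TMM-scaled counts. The septum is a mixture of muscle cells, fibroblasts, vessel cells and others, and in such bulk tissue fewer muscle cells and less titin RNA per muscle cell cannot be told apart. Markers of these cell types were not looked up, because the table carries no gene names.

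Genes with the pattern most like that of titin were sought among 8711 others with a mean of at least 10 CPM, by Pearson's r of log2 CPM over the 24 libraries. The closest was a gene on chromosome 16 at 9855927 to 9918532, with 5832 exonic bases and 977 CPM (r = 0.95, and 0.89 after the mean of each rat-number set was removed). It was followed by genes of 1537 bases on chromosome 17 (r = 0.94), 4907 bases on chromosome 4 (r = 0.94), 12352 bases on chromosome 2 (r = 0.93) and 14373 bases on chromosome 4 (r = 0.92). The lowest r belonged to genes of 1058 bases on chromosome 17 (r = -0.94) and of 1890 bases on chromosomes 8 and 1 (r = -0.93 and -0.92). In all, 24 genes had an r above 0.9 and 14 below -0.9. Once the set means were removed, 2 genes were above 0.9. These were the gene of 4907 bases on chromosome 4 and one of 2883 bases on chromosome 1, whose r over the 24 libraries was only 0.35. These libraries share the rat-number sets and the groups, so that r describes a common pattern only.

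Likeness to titin was spread over gene lengths. Of the 100 genes with the highest r, 35 belonged to the longest of the 5 length classes, which held 26.0% of the genes compared. The 12 very long genes among those compared had a median r of 0.16, near the 0.13 of all genes. Those with many exons differed among themselves, from the gene on chromosome 10 at 0.82 and one of 122 exons on chromosome 12 at 0.72 to one of 117 exons on chromosome 6 at -0.26.

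The genes next to titin on chromosome 3 were far less abundant. The one 7273 bases past titin's 3′ end, on the opposite strand, has 2429 exonic bases and averaged 20.7 CPM, with r = 0.42. The one 23905 bases before its 5′ end, on the same strand, has 7698 exonic bases and averaged 91.0 CPM, with r = 0.86. In BATx against intact leptin rats neither passed without the set term (3.03% of genes called). With it, where 18.6% of genes were called, the first rose by 0.44 (edgeR adjusted p = 0.0235) and the second fell by 0.70 on the log2 scale (adjusted p = 0.0115). The 2 neighbours thus lay on opposite sides of zero in a comparison in which titin fell.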

How the data were processed

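Libraries of messenger RNA were read from both ends, as the labels' protocols state. The authors deposited raw read counts per gene, and per the file headers they came from featureCounts 2.0.6 with gene models of Ensembl 113 (mRatBN7.2). The submitters' processing notes name STAR 2.7.10a, featureCounts 2.0.2, DESeq2 and R 4.4.1, so the versions differ between sources. The header shows no strand option and none for counting a pair once. Values of 2 number 19013 and values of 1 number 5161, as when mates are counted singly.

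From these counts, 17347 genes were kept by filterByExpr, put on a common scale by TMM and compared in edgeR 4.0.16 under R 4.3.3 by a robust quasi-likelihood test, 1 model holding the 24 libraries, with Benjamini-Hochberg adjustment at 0.05. Log2 CPM used a prior count of 2. The length gradient rests on 5 classes of genes by exonic length. One value per library was tested by permutation, exact and two-sided, and correlations over 17 rats used 100000 resamples. DESeq2 1.42.0 and limma 3.58.1 were alternatives. Genes named are titin, the long genes, those with the highest and lowest r and the neighbours. Titin, its lists and the rat-number boundary were chosen with earlier results of these data known.

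The name tables matched 0 of the 30562 IDs, so 13 lists of 96 symbols, of cell type markers and of titin's partners, were not run. A further 5 count columns fit none of the samples listed and were not used here. High-numbered rats are those numbered 168 and above, the others ending at 164. No 2 libraries were identical. Replicate numbers were not taken as pairs. Intervals cover counting error only.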

Additional observations from a re-analysis of the deposited data

Results flagged for a closer look

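In 2 of 42 groups of values, 1 library stood apart from the others by Dixon's ratio, and chance gives about 1 in 20. Among the 4 low-numbered BATsx rats, replicate 1 had 1883 CPM of titin, and the nearest of the others had 2332. Among the 6 intact leptin rats, titin took 0.253% of all reads in replicate 1 (95% Wilson interval 0.252% to 0.254%), and the nearest of the others had 0.328%. That library also had the highest mitochondrial share of its group, 41.1%. Its share of nuclear reads was 0.430%, still the lowest of the 6, with 0.482% to 0.560% in the other 5.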

How the results depend on the processing

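Values are log2 differences of titin. Adjusted p is over all tested genes, except in the exact tests, where it is over the 6 comparisons only. BATx against intact leptin rats kept its sign under all 15 alternatives, with adjusted p from 0.00152 to 0.234, and passed under 9 of them. These were the set term (-0.88), DESeq2 (-0.87, adjusted p = 0.0312), limma-voom with sample weights (-0.93), the linear rat number (-1.31), the set term with the length gradient (-0.83), the low-numbered rats alone (-0.93), the replicate block (-0.93, adjusted p = 0.0139) and the exact permutation tests over all rats (-0.91) and low-numbered rats (-0.97). It missed the threshold with other scalings, without the filter on low counts, with the 2 groups fitted alone and with the 4 lowest-numbered leptin rats left out. In that comparison edgeR called 525 genes, and the count was 1021 with the replicate block, 3219 with the set term, 2033 in the low-numbered rats, 1295 with the gradient, 4042 with the linear number, 174 with plain totals, 234 without the filter, 0 with the 2 groups alone, 5 without the 4 leptin rats, 1342 by DESeq2 and 3013 by limma-voom. For leptin against vehicle the 117 calls became 1063 with the set term, 3635 with the block, 1610 by DESeq2 and 10506 by limma-voom, which also turned titin's sign (-0.18). BATsx against intact leptin rats passed in the exact test of low-numbered rats (-0.48). BATx against intact vehicle rats passed with limma-voom (-1.11) and the linear number (-0.88), which called 9643 and 6804 of the 17347 genes there. BATx against BATsx rats passed with the linear number (-0.80), which called 3392 genes. BATsx against intact vehicle rats turned sign with the set term (0.065), plain totals (0.10), the set term with the gradient (0.079), the low-numbered rats (0.20) and their exact test (0.19). It passed with limma-voom (-0.57), which called 8025 of the 17347 genes there, so that passing such a fit sets titin little apart. The cause was not tested. With each library left out, over all models run, the ranges were 0.035 to 0.60 for leptin against vehicle, -1.08 to -0.73 for BATx and -0.52 to -0.16 for BATsx against intact leptin rats, -0.90 to -0.28 for BATx and -0.26 to 0.15 for BATsx against intact vehicle rats, and -0.77 to -0.36 for BATx against BATsx rats. Relative to the 20 long genes they were, in the same order, -0.049 to 0.27, -0.78 to -0.46, -0.16 to 0.12, -0.67 to -0.35, -0.083 to 0.23 and -0.74 to -0.44. With the 20 longest genes of at least 10 CPM, the relative value of BATsx against intact leptin rats turned to 0.048. Replicate numbers were not taken as pairs, since the labels do not say that they pair rats and not every same-numbered pair but 24 of 36 had a correlation of deviations over 0.1 (median 0.20, against -0.0093 for other pairs), and the replicate block changed no other call of titin. Within each group the replicate numbers mostly rise with the rat number, and replicate 6 is a high-numbered rat in every group. The likeness of same-numbered pairs and the replicate block therefore overlap with the rat-number set and are no separate check. The exact tests of titin's own level and the fits without the 4 leptin rats were chosen after seeing the data. Titin's depth did not limit these values, whereas 8 of the 20 long genes were under 10 CPM.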
